A study of Sus scrofa with 5 samples.

Results

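Pig miRNAs whose names carry a number of 1000 or more were described across 5 small RNA libraries. The members were all mature names in the table of reported miRNAs with such a number after ssc-miR-, except ssc-miR-7136-5p and ssc-miR-4332, which gave 129 of 411 names. They were compared with the 272 names numbered under 1000, while the 8 let-7 names, which have no such number, entered only the totals. Both BL libraries, BL_1 and BL_2, came from pig blastocysts that were made by parthenogenetic activation of oocytes and collected on day 7. The other libraries were 1 each of ES-like cells, embryonic stem cell-like cells derived from blastocysts and grown on mitotically inactivated mouse fibroblasts, of PEBs, embryoid bodies grown in hanging drops from ES-like cells, and of PFFs, fibroblasts of fetuses whose head, limbs and organs had been removed. BLs and ES-like cells were the pluripotent samples, and PEBs and PFFs the differentiated ones. A BL library is a pool of embryos, reads from feeder cells were not separated here, and only BLs had more than 1 library.

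A miRNA is cut from a hairpin by Drosha with DGCR8 and then by Dicer, and the 5p or the 3p arm of the resulting duplex is loaded into an Argonaute protein. It then pairs through its seed with messenger RNAs and lowers their translation or stability. Numbers in miRNA names are given in the order of submission, and orthologous miRNAs keep the number across species. The low numbers therefore hold many of the abundant miRNAs shared by vertebrates, and the high numbers hold many that were found later, by deep sequencing, often in 1 lineage.

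PFFs gave 27071931 reads of mature miRNAs, PEBs 15849954, ES-like cells 6372500 and BL_2 2782150, while BL_1 gave only 113743. Values are given as reads and as RPM, reads per 1000000 mature miRNA reads of the library. One read was worth 8.79 RPM in BL_1 and 0.0369 RPM in PFFs, so that a name without a read could lie at up to 26.4 RPM in BL_1 but only at up to 1.08, 0.471, 0.189 and 0.111 RPM in BL_2, ES-like cells, PEBs and PFFs (a limit of 3 reads, for counting error only). ssc-miR-371-5p, of the embryonic miR-371 family, had 324635 and 296148 RPM in the BL libraries and at most 30.9 RPM elsewhere. The summed level of ssc-miR-363, ssc-miR-20b and ssc-miR-106a was highest in ES-like cells, and that of 5 fibroblast miRNAs in PFFs, where ssc-miR-21 made up most of it. Of these 5, ssc-miR-21, ssc-miR-143-3p and ssc-miR-145-5p were highest in PFFs. ssc-miR-199a-3p and ssc-miR-214 were highest in PEBs, with 80420 against 52517 RPM and 774 against 516 RPM in PFFs. Of the same list, ssc-miR-145-5p and ssc-miR-214 had no read in BL_1. The liver miRNA ssc-miR-122 stood at 4.14 RPM in PFFs, 54096 in PEBs and 101004 in ES-like cells. All 3 muscle miRNAs had their highest value in a BL library, with summed levels of 1073 and 2442 RPM in BLs and 188 to 1017 RPM in the cultured libraries. One of 4 blood cell miRNAs did so, ssc-miR-486, while ssc-miR-451, ssc-miR-144 and ssc-miR-142-5p had no read in BL_1. The part of such cells in the values below was not tested.

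Of the 129 late-numbered miRNAs, 52 (40.3%) had at least 1 read in any library, against 265 of 272 (97.4%) of the names numbered under 1000. They were detected least often in BL_1, with 27 names (20.9%), and most often in PFFs, with 50 (38.8%). BL_2 held 39 of them, ES-like cells 42 and PEBs 40. Names under 1000 ran from 178 (65.4%) in BL_1 to 257 (94.5%) in ES-like cells. With every library thinned to the reads of BL_1, the late-numbered names detected numbered 25.8, 24.4, 20.9 and 21.6 on average in BL_2, ES-like cells, PEBs and PFFs. Those of the earlier names numbered 188, 213, 210 and 184, so at equal depth BL_1 and BL_2 held the most late-numbered names and ES-like cells the most earlier ones. These are counts in single libraries, without a test.

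The names without reads lay mostly at the end of the numbering. In the band from 9000 upward 67 of 79 names had no read in any library, while all 6 names from 2000 to below 4000 and 12 of 14 from 1000 to below 2000 had reads. The band from 4000 to below 7000 held 4 detected names of 8, and the names between 7000 and 9000 held 18 of 22. The detected share was thus not graded along the numbers. At the lower edge of the numbering, ssc-miR-1224 had no read and ssc-miR-1249 had 2082 in all libraries together, while ssc-miR-1271 and ssc-miR-1277 had 327 and 42. Just below it ssc-miR-935 had 85, ssc-miR-885-5p 26, ssc-miR-885-3p 7 and ssc-miR-874 2935.

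**Figure D1:**
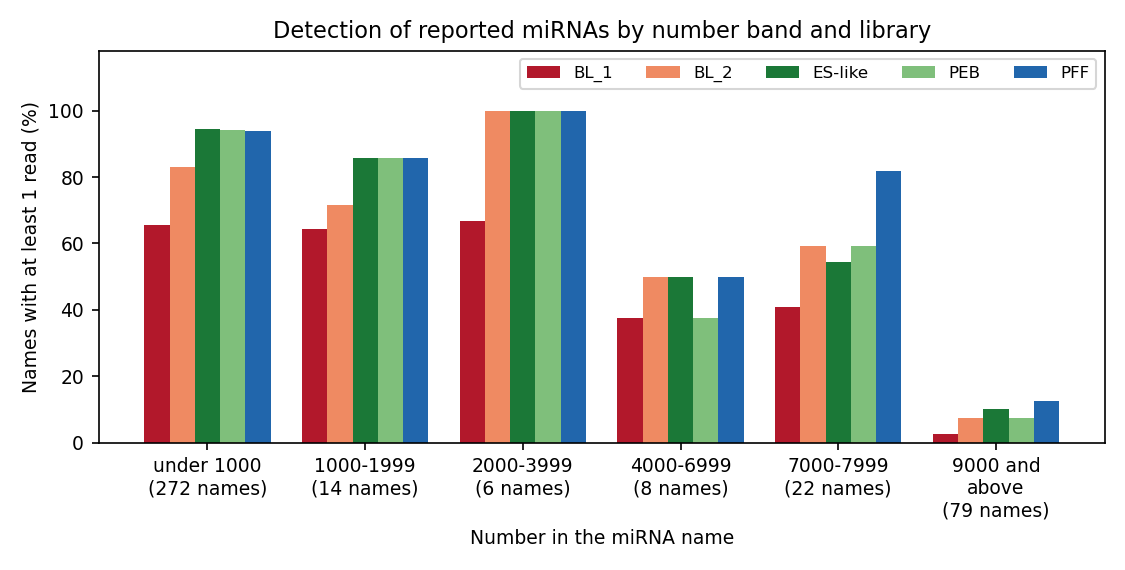
Share of names with at least 1 read (vertical axis, percent) by the number in the name (horizontal axis) in each of the 5 libraries, with the number of names in each class. The band from 9000 upward lies between 2.53% in BL_1 and 12.7% in PFFs, and the names under 1000 lie between 65.4% and 94.5%.

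The detected late-numbered miRNAs were sparse. Their median total was 177.5 reads over all libraries, against 6421 for the detected names under 1000, and 15 of 52 (28.8%) reached 1000 reads, against 187 of 265 (70.6%). In the band from 9000 upward only ssc-miR-9843-3p reached 1000 reads, with a total of 1005. Of the 52, 23 were read in all 5 libraries (44.2%) and 6 in 1 cell type only (11.5%). Of the 265 detected names under 1000, 167 were read in all 5 libraries (63.0%) and 4 in a single library (1.51%). ssc-miR-9860-5p had 29 reads, all in PFFs (1.07 RPM), which is at least 5.66-fold above PEBs and at least 2.28-fold above ES-like cells, and which the limits of the BL libraries do not separate from BLs. The others read in 1 cell type had few reads, namely 6 for ssc-miR-9828-3p and 1 for ssc-miR-9841-3p in BLs, and 4 for ssc-miR-7141-5p, 1 for ssc-miR-7142-5p and 1 for ssc-miR-9793-5p in PFFs. The reads of ssc-miR-9828-3p stood as the same value in 3 precursor rows that were summed.

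All late-numbered miRNAs together took under 1% of the mature reads in each library. Their share was 0.842% (95% Wilson interval 0.791 to 0.897) in BL_1 and 0.508% (0.4996 to 0.516) in BL_2. PFFs had 0.235% (0.234 to 0.237), PEBs 0.190% (0.188 to 0.193) and ES-like cells 0.391% (0.386 to 0.396). Both BL libraries lay above the 3 cultured libraries, and the BL libraries differed from each other by more than counting error. These intervals cover counting error only, and PCR copies make reads less independent than they assume. The names under 1000 took 97.3, 98.1, 96.7, 91.8 and 95.04%, from BL_1 to PFFs. According to the paper, miRNAs made up a smaller part of the small RNAs in both BL libraries than in the cultured samples. Read lengths there peaked broadly at a longer size in BLs. The part of these differences between libraries in the values here and below was not tested.

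A few names made up most of these reads. ssc-miR-1307 led in every library and took 53.0 and 56.6% of the late-numbered reads of BL_1 and BL_2, and 42.8, 31.2 and 35.2% of those of ES-like cells, PEBs and PFFs. By its mean over the 4 cell types it ranked 53rd of all names. The next place was held by ssc-miR-1285 in both BL libraries (16.0 and 8.76%) and by ssc-miR-4334-3p in ES-like cells, PEBs and PFFs (30.9, 25.2 and 20.6%). The 5 leading names of a library together held 79.0% (PFFs) to 87.6% (BL_1) of its late-numbered reads. With the numbers from 2000 upward alone, the share of all mature reads was 0.185 and 0.119% for the BL libraries, while ES-like cells had 0.172%, PFFs 0.131% and PEBs 0.0810%, so the order of the libraries was not the same without the names below 2000.

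Late-numbered miRNAs had their highest value more often in a BL library than the earlier names did. Of the 52 with a read, 17 were highest in BL_1 and 13 in BL_2, and the cultured libraries followed with 12 (ES-like cells), 8 (PFFs) and 2 (PEBs). The 265 earlier names gave 40 and 32 for the BL libraries and 88, 42 and 63 for the cultured ones in this order. By the mean of each cell type, BLs held the highest value of 27 late-numbered names (51.9%), against 61 earlier names (23.0%). These shares were compared without a test. In BL_1, 11 of the 17 rested on fewer than 10 reads, and 6 on at most 3. In BL_2, 7 of the 13 rested on fewer than 10 reads, and 3 on at most 3. Without BL_1, BL_2 was highest for 25 of 52 (48.1%), against 65 of 265 earlier names (24.5%). These 25 include the 13, so leaving out BL_1 does not remove values that rest on few reads. Among the 39 names with at least 10 reads in a library, 16 were highest in BL_1 and 7 in BL_2, against 40 and 30 of 256 earlier names. A name can pass this filter through a cultured library, so the filter does not remove BL_1 values that rest on few reads. The numbers for the cultured libraries depended on scaling. With TMM scaling ES-like cells fell to 6 names and PFFs reached 16, while BL_1 and BL_2 held 15 and 11. In this order these were 11.5, 30.8, 28.8 and 21.2% of the 52, against 14.0, 34.3, 13.6 and 12.5% of the 265 earlier names. TMM scaling moved the median difference between pluripotent and differentiated libraries by -0.65 on the log2 scale relative to RPM, and that between BLs and cultured libraries by -0.07. Between single libraries it multiplied every RPM ratio of PFFs to ES-like cells by 2.78, of PFFs to BL_2 by 1.70 and of PEBs to ES-like cells by 1.64, and DESeq2 size factors multiplied the first by 2.05. Ratios below are of RPM unless another scaling is named. In these bulk libraries fewer cells of a kind and less of a miRNA per cell cannot be told apart.

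**Figure D2:**
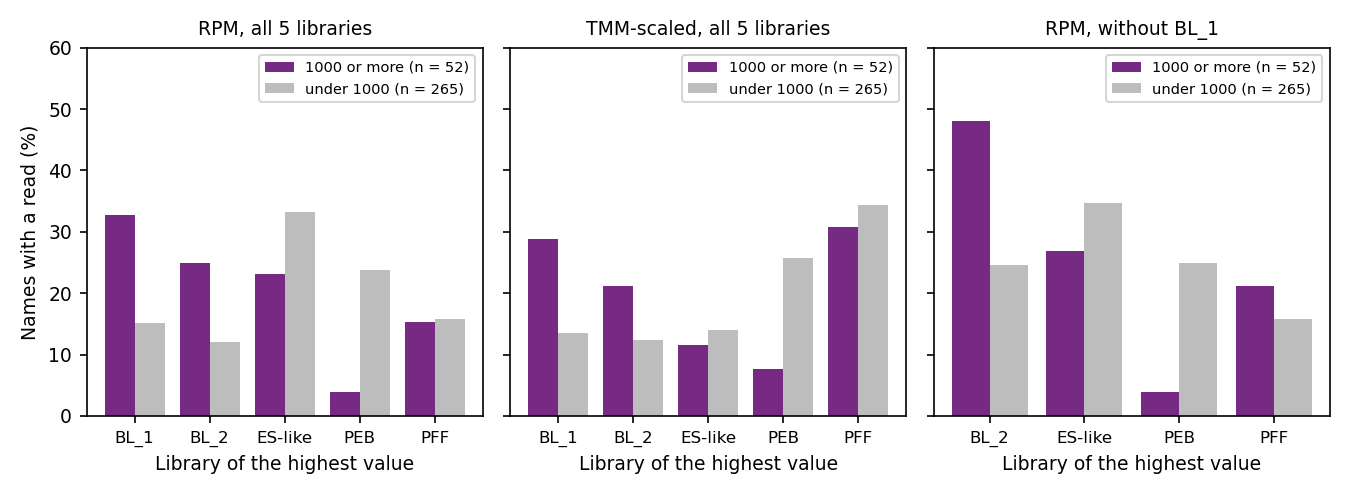
Share of detected names (vertical axis, percent) whose highest value lay in each library, for names numbered 1000 or more and under 1000, by RPM, by TMM-scaled values and by RPM without BL_1. The BL bars of the late-numbered names stand above those of the earlier names in each panel, with 48.1% against 24.5% in BL_2 where BL_1 is left out, and the bars of ES-like cells and PFFs change with scaling.

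By the rule of more than 2-fold above each other cell type, 18 of the 52 late-numbered miRNAs were called for BLs, where 18.7% of all 327 names with a read were called. The rule called 6 for ES-like cells (12.5% of all names), 1 for PEBs (7.34%) and 7 for PFFs (7.95%). The shares of the 52 were thus 34.6, 11.5, 1.92 and 13.5%. With TMM scaling the share for PFFs was 17.3%, against 15.6% of all names, and with DESeq2 size factors 15.4 against 15.6%. For BLs it was 30.8 against 17.7% and 34.6 against 19.9%. With at least 10 reads asked of every library of the cell type, 4 remained for BLs (ssc-miR-1249, ssc-miR-1285, ssc-miR-1307 and ssc-miR-7139-5p), where 8.87% of all names were called, and 4 each for ES-like cells (11.6% of all names) and PFFs (6.73%). The share of the 52 was then 7.69% in each of these cell types, which for BLs was below the share of all names. A pseudocount of 10 RPM likewise left 11.5% for BLs, against 12.2% of all names. A rule of this kind was used in the study to list the miRNAs of each cell type. Both BL libraries lay above all cultured libraries for 15 of the 52 (20.5% of all names did so) and below all of them for 10 (38.8% of all names). For 9 of these 10 BL_1 had 0 reads. With libraries at 0 reads set at the limit of 3 reads, only ssc-miR-4334-3p stayed below (24.5% of all names did so). It rested on rows at hairpins of another miRNA, and by the row at its own hairpin alone (105.5 and 70.1 RPM in BLs, 24.6 to 82.4 in the cultured libraries) it was not below. The 15 above stayed, but the limit of 3 reads could hardly move them. A single read in BL_1 was worth 8.79 RPM, and the limits of the cultured libraries were at most 0.471 RPM. Among the 15, ssc-miR-2483, ssc-miR-7139-3p and ssc-miR-9820-5p had 1 read each in BL_1. With TMM scaling 13 stood above (19.9% of all names did so).

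In the comparison of BLs with the cultured libraries, ssc-miR-1285 alone among the late-numbered miRNAs passed the test. By edgeR's quasi-likelihood test with Benjamini-Hochberg adjustment over the 279 names that exceeded 5 reads in 3 or more libraries, 1 of the 33 late-numbered names tested was higher in BLs and 0 were lower, where 6.45% of all names were called higher and 4.66% lower. At an unadjusted p under 0.05 there were 9 of 33, 7 higher and 2 lower, against 98 of all 279 names, 37 higher and 61 lower (13.3 and 21.9%). DESeq2 called 6 higher, namely ssc-miR-1249, ssc-miR-1285, ssc-miR-1307, ssc-miR-1468, ssc-miR-7137-3p and ssc-miR-7139-5p, and 2 lower, ssc-miR-1306-3p and ssc-miR-3613. Over all names DESeq2 called 35 higher (12.5%) and 65 lower (23.3%). The log2 fold change was above 0 for 24 of the 33, with a median of 0.98, against a median of -0.84 over all 279 names. The filter asks for reads in at least 1 cultured library, so names read only in BLs were not tested, and the group of cultured libraries holds 3 cell types, whose differences count as spread. Nothing in the labels says whether the BL libraries were separate collections, so p-values measure only the spread between these samples. No late-numbered miRNA passed between the pluripotent and the differentiated libraries by edgeR (0% of all names were called in either direction), with 2 at an unadjusted p under 0.05, against 21 of all names (7.53%, with 5.02% higher and 2.51% lower). DESeq2 called 2 higher in pluripotent libraries, ssc-miR-1285 and ssc-miR-1468, and 0 lower, against 13 of all names higher (4.66%) and 1 lower (0.358%).

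ssc-miR-1285 stood at 1345 RPM in BL_1 (153 reads) and 445 RPM in BL_2 (1238 reads). ES-like cells had 97.5 RPM (621 reads), PEBs 35.1 (557 reads) and PFFs 27.6 (746 reads). Both BL values lay above all others, although they differed 3.02-fold from each other. The BL mean (895 ± 637 RPM, SD, n = 2) was 9.18-fold that of ES-like cells and 32.5-fold that of PFFs. The log2 fold change of BLs over cultured libraries was 4.39 (SE 0.88, adjusted p = 0.0200 by edgeR). The call was lost without BL_1, BL_2, ES-like cells or PEBs, with adjusted p of 0.0906, 0.119, 0.0555 and 0.0940, and held without PFFs, where it was 0.000601. With 1 BL library left, the lone library is assumed to vary like the cultured ones. In the 4 fits without the call the log2 fold change was 3.98, 4.71, 4.52 and 4.05. Between pluripotent and differentiated libraries its log2 fold change was 4.25 (SE 1.64, adjusted p = 0.478 by edgeR and 0.0340 by DESeq2).

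A further 3 names had BL values well above all cultured libraries without passing edgeR's adjusted test, while DESeq2 called each of them. ssc-miR-1249, which lies within KIAA0930, had 440 RPM in BL_1 and 241 in BL_2, while PFFs had 35.3 RPM, PEBs 10.1 and ES-like cells 38.6. Its reads stood as equal values in 2 precursor rows that were summed. The lowest BL value was 6.24-fold that of ES-like cells, and the log2 fold change was 3.74 (SE 1.01, adjusted p = 0.0540 by edgeR and 0.00157 by DESeq2).

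ssc-miR-7137-3p, within BUD23, a methyltransferase of ribosomal RNA, had 61.5 and 26.2 RPM in BL_1 and BL_2 and 3.14, 0.946 and 3.66 RPM in ES-like cells, PEBs and PFFs. The BL and cultured libraries did not overlap, with a log2 fold change of 4.09 (SE 1.12, adjusted p = 0.0540 by edgeR and 0.00204 by DESeq2). ssc-miR-7139-5p, within E2F7, which codes for a repressor of cell cycle genes, had 132 RPM in BL_1 (15 reads) and 28.8 in BL_2 (80 reads). ES-like cells had no read, PEBs 0.252 RPM (4 reads) and PFFs 1.81 RPM (49 reads), so BL_2 lay at least 61.1-fold above ES-like cells. Its log2 fold change was 6.32 (SE 1.78, adjusted p = 0.0553 by edgeR and 0.000243 by DESeq2).

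These 3 names passed edgeR's adjusted test without PFFs, where 11 of the 33 late-numbered names were called higher and 2 lower, against 44 of all 279 names higher (15.8%) and 75 lower (26.9%). With RLE size factors in place of TMM they passed it too, with adjusted p of 0.0414, 0.0466 and 0.0466. Leaving out each library in turn gave log2 fold changes of 3.05 to 4.48 for ssc-miR-1249, 3.39 to 5.03 for ssc-miR-7137-3p and 5.54 to 9.11 for ssc-miR-7139-5p, the low end without PEBs (for the last, without ES-like cells) and the high end without PFFs. The fit without PFFs had adjusted p of 0.000375 for ssc-miR-1249, 0.000182 for ssc-miR-7137-3p and 1.27e-08 for ssc-miR-7139-5p. Without BL_1, BL_2, ES-like cells or PEBs, edgeR called 0 of the 33 in either direction, where it called 2, 1, 6 and 1 of all 279 names higher and 0, 0, 9 and 0 lower. The summed level of the muscle miRNAs was also highest in BL libraries by RPM (1073 and 2442 RPM against at most 1017). The excess of BL_1 over PFFs was small, and ssc-miR-1 was lower in BL_1 than in PFFs (853 against 898 RPM). The part of the muscle miRNAs in the BL values was not tested.

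Further names were highest in BLs by RPM with smaller or less certain differences. ssc-miR-1307, within USMG5, which codes for a small subunit of mitochondrial ATP synthase, had 4466, 2872, 1673, 595 and 830 RPM in BL_1, BL_2, ES-like cells, PEBs and PFFs. The BL libraries did not overlap with the others, and its log2 fold change was 2.17 (SE 0.79, adjusted p = 0.0952 by edgeR and 0.0422 by DESeq2). ssc-miR-1468 had 61.5 and 16.2 RPM in BLs, while ES-like cells had 10.5 RPM, PEBs 3.28 and PFFs 0.369 (10 reads). Its pluripotent libraries all lay above its differentiated ones, with a log2 fold change of 4.12 (SE 1.71, adjusted p = 0.478 by edgeR and 0.0473 by DESeq2). ssc-miR-2411, within UBAP2L, had 52.8 and 68.7 RPM in BLs and 31.5, 18.0 and 12.6 RPM in the cultured libraries, with a log2 fold change of 2.14 between BLs and cultured libraries (SE 0.86, adjusted p = 0.124 by edgeR).

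ssc-miR-7140-3p, within REM1, was read 24 times in BL_2 (8.63 RPM) and 3 times in PFFs. It had no read in ES-like cells and PEBs, at least 18.3-fold and 45.6-fold below BL_2, nor in BL_1, whose depth does not separate it from BL_2. ssc-miR-9820-5p, within SIL1, had 1 read in BL_1, 14 in BL_2 and at most 3 in each cultured library. ssc-miR-7857-3p stood at 703 RPM in BL_1 and 244 in BL_2, but at 291 RPM in PFFs, 121 in ES-like cells and 78.9 in PEBs, so BL_1 alone lay above PFFs. ssc-miR-6782-3p had 61.5 and 58.2 RPM in BLs, 43.3 in PFFs, 20.2 in ES-like cells and 6.75 in PEBs. For both names BL_2 and PFFs differed by less than 2-fold by RPM, but PFFs lay 2.03-fold above BL_2 for ssc-miR-7857-3p with TMM scaling. With TMM scaling the log2 ratio of the BL mean to PFFs turned from 0.70 to -0.13 for ssc-miR-7857-3p and from 0.47 to -0.34 for ssc-miR-6782-3p.

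**Figure D3:**
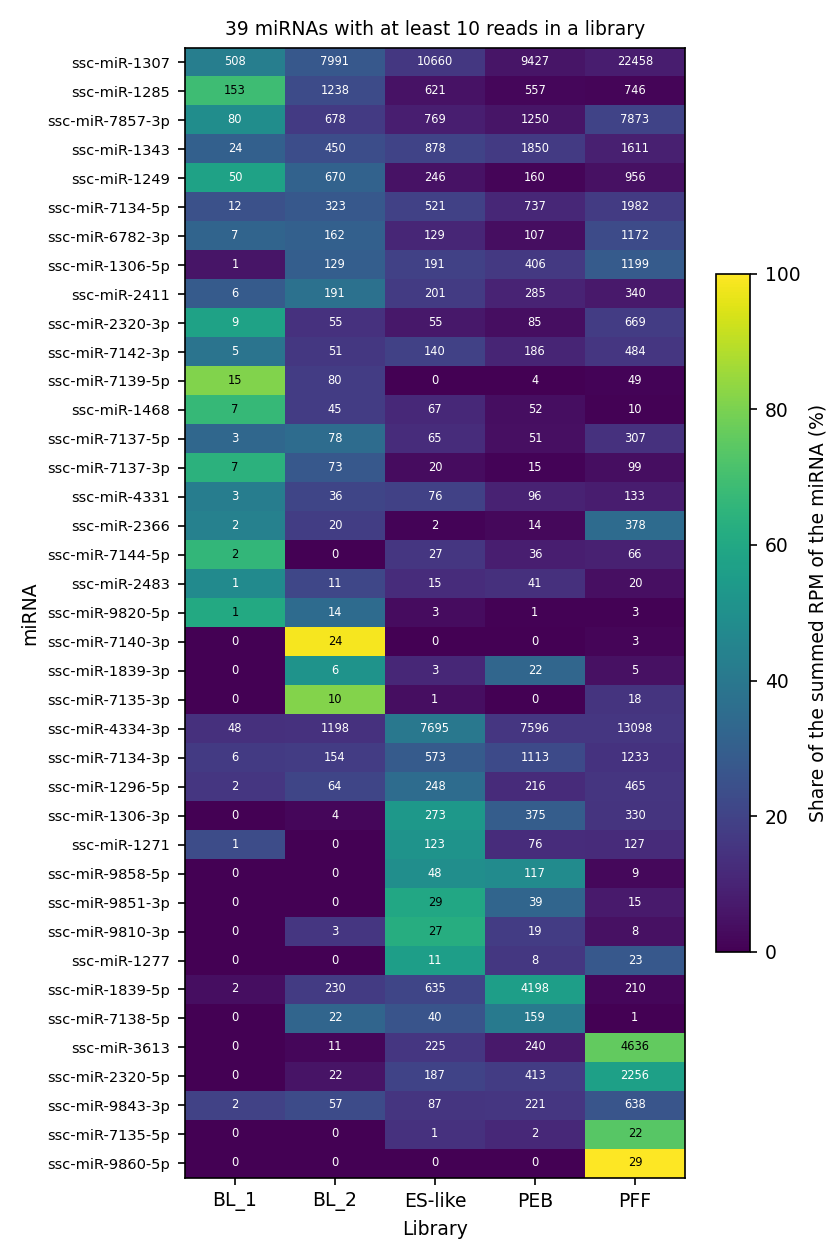
The 39 late-numbered miRNAs with at least 10 reads in a library (vertical axis) by library (horizontal axis), with the colour giving the share of the summed RPM of each miRNA in percent and the printed number giving its reads. Names are grouped from top to bottom by the library of the highest value, BLs first, and many of the bright BL_1 fields rest on few reads.

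Some late-numbered miRNAs had reads in cultured cells and few or none in BLs. ssc-miR-3613 reached 171 RPM in PFFs (4636 reads). ES-like cells had 35.3 RPM, PEBs 15.1 and BL_2 3.95 (11 reads), and BL_1 had no read. PFFs lay 4.85-fold above ES-like cells (13.5-fold with TMM scaling and 9.94-fold with DESeq2 size factors) and at least 6.49-fold above BL_1. Its log2 fold change of BLs over cultured libraries was -4.37 (SE 1.83, adjusted p = 0.136 by edgeR and 0.0130 by DESeq2). Without PFFs it was -1.83, and without BL_2 the BL side rests on 0 reads. It had 7.28% of the late-numbered reads of PFFs.

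ssc-miR-2320-5p had 83.3 RPM in PFFs, 26.1 in PEBs, 29.3 in ES-like cells and 7.91 in BL_2, with no read in BL_1. The value of PFFs was 2.84-fold that of ES-like cells (7.89-fold with TMM scaling and 5.82-fold with DESeq2 size factors), while ES-like cells and PEBs differed 1.13-fold. ssc-miR-7135-5p, within the transporter gene ABCC1, had 22 reads in PFFs (0.813 RPM), 2 in PEBs, 1 in ES-like cells and none in BLs, whose limits lie above the PFF value. Each of these 3 names was highest in PFFs, which are mesenchymal cells with 680039 RPM in the 5 fibroblast miRNAs.

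Among names with at least 10 reads in ES-like cells, the highest ratio to the next cell type was that of ssc-miR-1271, which shares its seed with miR-96 and lies within ARL10. ES-like cells had 19.3 RPM of it (123 reads), PEBs 4.79 and PFFs 4.69, with 1 read in BL_1 and none in BL_2. ES-like cells lay 4.03-fold above PEBs, 4.11-fold above PFFs and at least 17.9-fold above BL_2. With TMM scaling the ratios to PEBs and PFFs were 2.45 and 1.48, and the 2-fold rule no longer called it. ssc-miR-9810-3p, within MPC2, a subunit of the mitochondrial pyruvate carrier, had 27 reads in ES-like cells (4.24 RPM), 19 in PEBs (1.20 RPM), 8 in PFFs (0.296 RPM), 3 in BL_2 and none in BL_1.

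A pair of names was shared by ES-like cells and PEBs. ssc-miR-9858-5p had 7.53 RPM in ES-like cells and 7.38 in PEBs, at least 6.99-fold and 6.85-fold above BL_2, where it had no read, and 0.332 RPM in PFFs. ssc-miR-9851-3p, within HSPA12A, had 4.55 and 2.46 RPM in ES-like cells and PEBs, 0.554 in PFFs and no read in BLs. PEBs derive from ES-like cells, so both libraries share their source, and ssc-miR-122 was also highest in them. These levels lie below the limit of BL_1.

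ssc-miR-1839-5p was the only name called for PEBs by the 2-fold rule. PEBs had 265 RPM of it (4198 reads), ES-like cells 99.6, BL_2 82.7, BL_1 17.6 and PFFs 7.76. PEBs lay 2.66-fold above ES-like cells (4.37-fold with TMM scaling) and 34.1-fold above PFFs. By RPM ES-like cells lay 1.21-fold above BL_2. TMM scaling multiplies the ratio of ES-like cells to BL_2 by 0.613 and DESeq2 size factors by 0.679. Either of these puts ES-like cells below BL_2. ssc-miR-7138-5p, within FGFR4, which codes for a fibroblast growth factor receptor, had 10.0 RPM in PEBs, 6.28 in ES-like cells and 7.91 in BL_2, no read in BL_1 and 1 read in PFFs.

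Some late-numbered names varied less between libraries. At least 10 reads in BL_2, ES-like cells, PEBs and PFFs each were asked. This left 23 of the 52 detected late-numbered names and 180 of the 265 earlier ones. Sparse names that are low in 1 library drop out, such as ssc-miR-7138-5p and ssc-miR-1306-3p, so the medians do not compare the classes as a whole. For the 23, the highest of these libraries exceeded the lowest 1.73-fold to 43.8-fold, with a median of 4.83. The median of the 180 earlier names was 8.08. ssc-miR-9843-3p, within SGMS2, had the lowest of these ratios by RPM, with 20.5, 13.7, 13.9 and 23.6 RPM in these libraries. With TMM scaling PFFs stood 4.80-fold above ES-like cells for it, and the 2-fold rule called it for PFFs. ssc-miR-7134-3p, within TNRC6B, whose protein works with Argonaute in silencing, had 55.4, 89.9, 70.2 and 45.5 RPM. ssc-miR-1343, within PDHX, a component of the pyruvate dehydrogenase complex, had 211 RPM in BL_1 and 162, 138, 117 and 59.5 RPM in the same order, with both BL values above the cultured ones. With DESeq2 size factors the 2-fold rule called it for BLs. At the other end ssc-miR-1468 and ssc-miR-3613 spanned 43.8-fold and 43.3-fold.

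**Figure D4:**
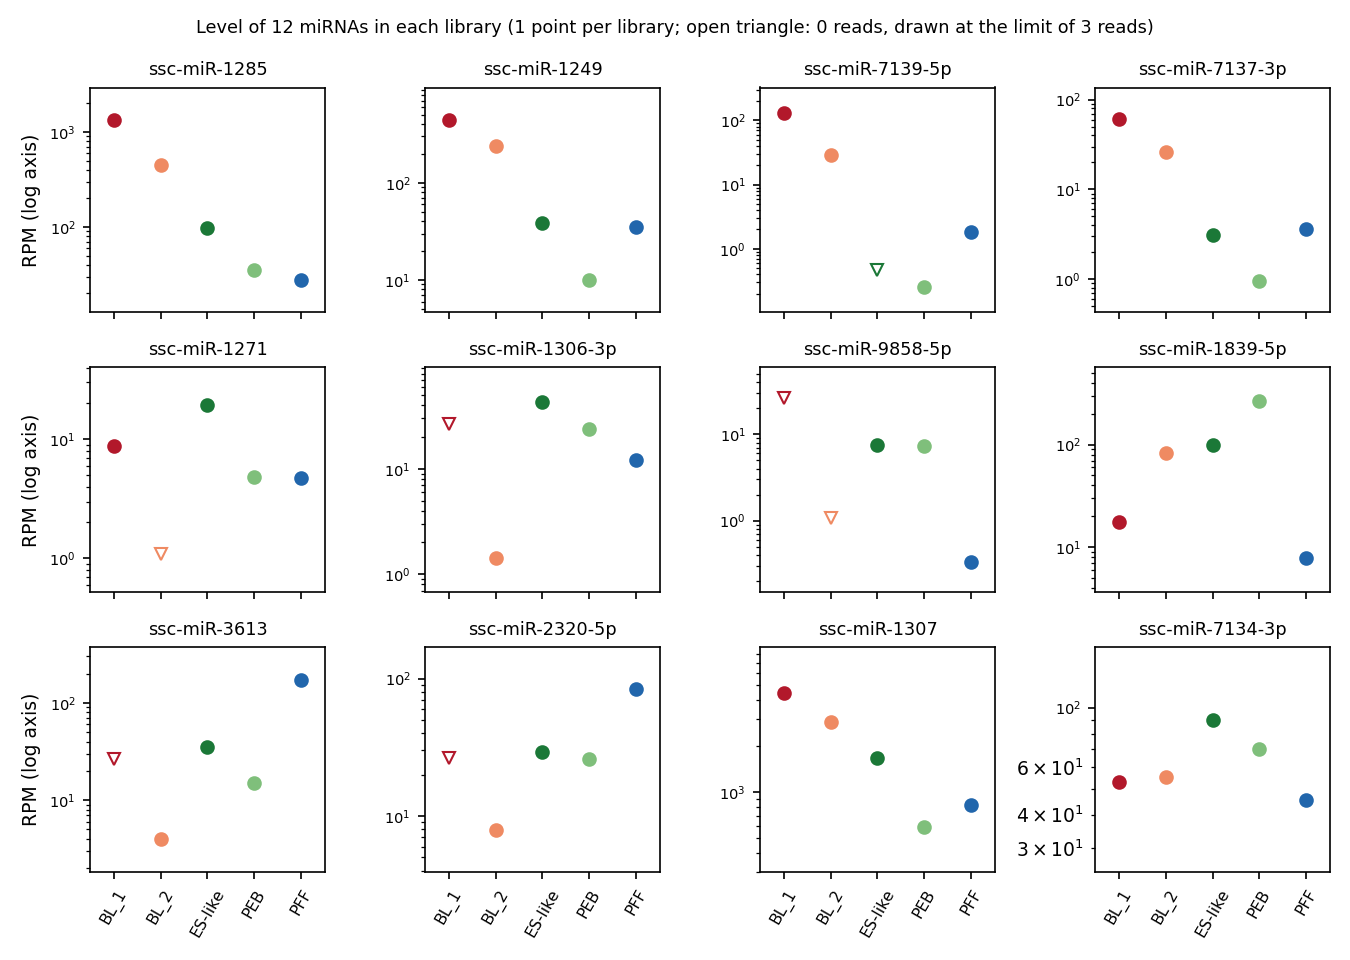
RPM (vertical axes, log scale) of 12 late-numbered miRNAs in each of the 5 libraries, with 1 point per library and open triangles for libraries with 0 reads, drawn at the limit of 3 reads. The first 4 panels have both BL libraries on top, ssc-miR-1839-5p peaks in PEBs at 265 RPM, and ssc-miR-3613 and ssc-miR-2320-5p peak in PFFs at 171 and 83.3 RPM.

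Both arms of 15 hairpins were among the late-numbered names, and 9 of these hairpins had reads on both arms and 6 on 1 arm. For 6 of them both arms had at least 10 reads in 1 library, namely miR-1306, miR-1839, miR-2320, miR-7134, miR-7135 and miR-7137. miR-1306, whose hairpin lies within DGCR8, the gene of the partner of Drosha, spanned 55.8 percentage points in the share of its reads on the 5p arm, over the libraries with at least 10 reads of both arms together, and miR-7135 and miR-2320 spanned 55.0 and 54.4. The 5p arm of miR-1306 held 97.0% of the reads of both arms in BL_2 (95% Wilson interval 92.5 to 98.8). PFFs followed with 78.4% (76.3 to 80.4), PEBs with 52.0% (48.5 to 55.5) and ES-like cells with 41.2% (36.8 to 45.7). The intervals do not overlap, and they cover counting error only, since each cell type but BLs had 1 library.

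Which arm of miR-1306 varied more between the cultured libraries depended on scaling. The highest of these 3 libraries exceeded the lowest 1.73-fold for the 5p arm and 3.51-fold for the 3p arm by RPM, and 4.11-fold and 1.26-fold with TMM scaling. Outside BL_1, with 1 read, ssc-miR-1306-5p ranged from 25.6 RPM in PEBs to 46.4 in BL_2. ssc-miR-1306-3p had 42.8 RPM in ES-like cells, 23.7 in PEBs, 12.2 in PFFs and 1.44 in BL_2 (4 reads), with no read in BL_1. Its log2 fold change of BLs over cultured libraries was -3.54 (SE 1.24, adjusted p = 0.0862 by edgeR and 0.0142 by DESeq2), and without BL_2 the BL side rests on 0 reads.

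miR-2320 and miR-7137 had a lower 5p share in BLs than in cultured cells. For miR-2320 it was 28.6% in BL_2 (19.7 to 39.5), and 77.3, 82.9 and 77.1% in ES-like cells, PEBs and PFFs. All 9 reads of this hairpin in BL_1 were on the 3p arm. For miR-7137 the 5p share was 30.0% of 10 reads in BL_1 (10.8 to 60.3), 51.7% in BL_2 (43.7 to 59.5), and 75.6% of the PFF reads, 77.3% of the PEB reads and 76.5% of those of ES-like cells, where the 3 cultured libraries differed by less than their intervals. For miR-7134 the order was another one, with 67.7% in BL_2, 61.6% in PFFs, 47.6% in ES-like cells and 39.8% in PEBs. miR-1839 used its 5p arm for 97.5 to 99.5% of its reads in BL_2 and the cultured libraries, and miR-7135 split 22 to 18 in PFFs and had only 3p reads, 10 of them, in BL_2.

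**Figure D5:**
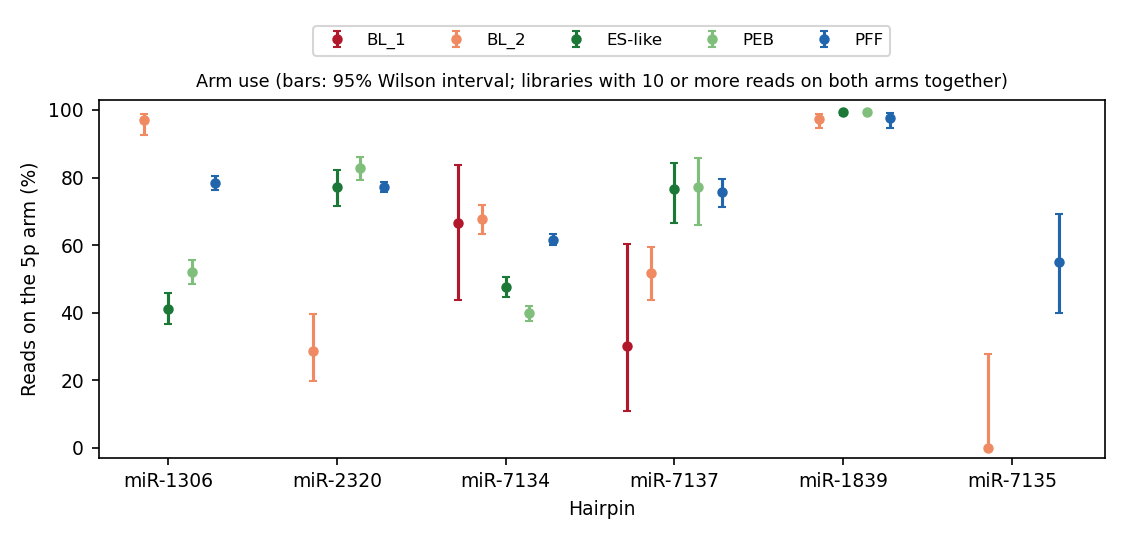
Share of reads on the 5p arm (vertical axis, percent) for 6 late-numbered hairpins (horizontal axis), with 95% Wilson intervals, in libraries with at least 10 reads on both arms together. BL_2 stands apart from the cultured libraries for miR-1306 (97.0%) and miR-2320 (28.6%), and miR-1839 stays near its 5p arm throughout.

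The second most abundant late-numbered name, ssc-miR-4334-3p, was counted mainly at hairpins of another miRNA. It had 422, 431, 1208, 479 and 484 RPM in BL_1, BL_2, ES-like cells, PEBs and PFFs, and 3 precursor rows, 2 of them at ssc-mir-339-1 and ssc-mir-339-2. With TMM scaling ES-like cells did not stand above PFFs for it, with a ratio of 0.898 in place of 2.50. At the miR-339 hairpins its counts were 24, 774, 5241, 5111 and 9360 at the first hairpin, where ssc-miR-339-5p had 24, 774, 5242, 5111 and 9362. These rows held 75.0, 83.7, 93.2, 94.9 and 92.1% of its reads. Whether the same reads were counted under both names was not tested. The row at its own hairpin, within DNPEP, gave 106, 70.1, 82.4, 24.6 and 38.0 RPM, with BL_1 (12 reads) and ES-like cells highest by RPM. TMM scaling multiplies the ratio of ES-like cells to BL_2 by 0.613 and that to PFFs by 0.360, which puts ES-like cells below both. Without the rows at the miR-339 hairpins the late-numbered share of reads was 0.811 and 0.472% for BL_1 and BL_2, and 0.279, 0.145 and 0.191% for ES-like cells, PEBs and PFFs.

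Of the 13 late-numbered names with more than 1 precursor row, 6 had reads, and in 5 of these, ssc-miR-1249, ssc-miR-2366, ssc-miR-9784-5p, ssc-miR-9788-3p and ssc-miR-9828-3p, the rows were identical in every library. Their summed levels are then multiples of a single row, and their ratios between libraries are those of a single row.

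The RefSeq annotation of Sscrofa11.1 placed 98 of the 135 hairpins of the late-numbered names on a chromosome. Among placed hairpins with reads, 28 of 41 (68.3%) lay within a protein-coding gene, against 27 of 57 (47.4%) without reads. Both the 28 and the 41 include ssc-mir-339-1 and ssc-mir-339-2, hairpins of another miRNA at which ssc-miR-4334-3p was counted. The table gives no strand, so a host gene named here is one whose span holds the hairpin. The counts are given without a test, since hairpins of 1 name share their reads.

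Both names that the rule left out had high values in BLs. ssc-miR-7136-5p had 1011 and 835 RPM in BLs and at most 0.628 RPM in a cultured library, with a log2 fold change of 11.65 (SE 1.19, adjusted p = 0.00414 by edgeR). ssc-miR-4332 had 61.5 and 148 RPM in BLs and at most 3.45 RPM elsewhere, with a log2 fold change of 6.36 (SE 1.18, adjusted p = 0.0178 by edgeR). The other arm of the first hairpin, ssc-miR-7136-3p, is a late-numbered member and had 7 reads in BL_2, 1 in each cultured library and none in BL_1.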

How the data were processed

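Small RNA was sequenced by the authors from 5 pig samples. They trimmed adapters (cutadapt 1.10) and mapped reads (Bowtie 1.1.1), to Sscrofa10.2 per the labels. The paper lists the pig genome by its Ensembl release. For alignment and quantification the paper names Bowtie, SAMtools 1.2 and HTSeq 0.6.1p1. It names miRDeep2 with miRBase for sorting miRNAs into reported and predicted ones. The deposited values used here are raw read counts of reported miRNAs, in 493 rows of a mature name and its precursor. The normalized values and the predicted miRNAs of the authors were not used here. Columns were matched to samples by title. In a supplementary sheet of the study the mature read totals of ES-like cells and PFFs stand the other way round from those of the deposited columns, while the 3 miRNA markers of ES-like cells were at least 147-fold higher in the ES-like than in the PFF column and all 5 of fibroblasts were higher in the PFF column.

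Counts were summed over the precursor rows of a name and divided by the mature reads of the library (RPM). Total counts per library, from 113743 to 27071931, set the precision. Comparisons of 2 BL libraries with 3 cultured libraries, and of 3 pluripotent with 2 differentiated libraries, used edgeR 4.0.16 in R 4.3.3 (TMM, quasi-likelihood, names that exceeded 5 reads in 3 or more libraries, Benjamini-Hochberg over 279 names, threshold 0.05), with DESeq2 1.42.0 as an alternative. The fits were tested on simulated data, and the outcome is not given here. Intervals for shares are 95% Wilson intervals. Figures and summaries were made with Python 3.11.15. Other scalings, read minimums, fold thresholds, row sums and left-out libraries were tried as alternatives. Names given in the text were the 12 highest by mean RPM, both arms of hairpins with at least 10 reads of each arm, and names read in 1 cell type. In each library the 3 names with at least 10 reads and the highest ratio to the next cell type were also given. Names called by edgeR, those the rule left out and those with reads and identical precursor rows were added. ssc-miR-1468, ssc-miR-2411, ssc-miR-7136-3p, ssc-miR-9843-3p, ssc-miR-9851-3p, ssc-miR-9858-5p and the names at the lower edge of the numbering were chosen after their values were seen. The members and lists were chosen with earlier results of these data known. Host genes came from RefSeq (Sscrofa11.1), a build other than that of the files, and no coordinates are given.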

Additional observations from a re-analysis of the deposited data

How the results depend on the processing

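No paired analysis was possible because only BLs had more than 1 library. BL_1 can miss names below 26.4 RPM, and cell type and library cannot be told apart for ES-like cells, PEBs and PFFs. The causes of the following shifts were not tested. Late-numbered names detected in BL_1 fell to 15 with at least 5 and 8 with at least 10 reads, and in PFFs to 33 with at least 10 reads; thinned to the depth of BL_1 they numbered 21.6 in PFFs, 20.9 in PEBs, 24.4 in ES-like cells and 25.8 in BL_2. The late-numbered share of reads, in the order BL_1, BL_2, ES-like cells, PEBs and PFFs, was 0.962, 0.577, 0.425, 0.230 and 0.251% with the largest precursor row of every name, and 0.185, 0.119, 0.172, 0.0810 and 0.131% for numbers of 2000 or more. It was 0.9495 and 0.606% in the BL libraries with both left-out names included. The next 2 alternatives were chosen after seeing the data, and gave 0.498, 0.415, 0.206 and 0.242% in BL_2 and the cultured libraries with identical rows counted once, and 0.472, 0.279, 0.145 and 0.191% without the rows of ssc-miR-4334-3p at the miR-339 hairpins.

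Names highest in ES-like cells, PEBs and PFFs numbered 6, 4 and 16 with TMM scaling, against 37, 68 and 91 of 265 earlier names. Those highest in BL_2 and PFFs numbered 7 and 5 where 10 reads in a library were asked, against 30 and 40 of 256. Leaving out a BL library gave 25 names highest in BL_2 or 20 in BL_1, 11 to 12 in PFFs, 2 to 3 in PEBs and 14 to 15 in ES-like cells. Of the 265 earlier names there were 65 or 57, 42 to 50, 66 to 68 and 90 to 92 in the same order. The 2-fold rule called 4 names for BLs and 4 for PFFs where every library of the cell type had 10 reads or more (8.87 and 6.73% of all names). With a pseudocount of 10 RPM it called 6, 1 and 2 for BLs, ES-like cells and PFFs (12.2, 7.95 and 5.20% of all names), at 4-fold 11, 2 and 0 for BLs, ES-like cells and PEBs (11.6, 3.36 and 2.14%), and with TMM scaling 2 for ES-like cells and 2 for PEBs (4.89 and 8.56%). Without 1 BL library it called 7 to 10 names for PFFs, 1 to 2 for PEBs, 15 to 16 for BLs and 6 to 8 for ES-like cells (of all names 7.34 to 9.79, 7.65 to 8.26, 16.2 to 17.1 and 11.3 to 13.1%). In the same alternatives 20 to 25 late-numbered names stood above and 12 to 15 below all cultured libraries (24.2 to 28.1 and 41.9 to 50.5% of all names). With 0 reads set at the limit of 3 reads, 15 stood above and 1 below with both BL libraries (20.5 and 24.5% of all names). With either BL library alone 20 to 24 stood above and 2 to 6 below (24.2 to 27.5 and 29.1 to 34.9% of all names). The limits of the cultured libraries lie under those of the BL libraries, so this setting bears mainly on the names below. TMM scaling and DESeq2 size factors gave 13 and 14 above (19.9 and 21.7% of all names) and 10 and 9 below (40.4 and 36.1%). The settings for names above or below all cultured libraries were chosen after seeing the data.

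Between BLs and cultured libraries, DESeq2 called 35 of all names higher and 65 lower, and 6 and 2 of the late-numbered names. With RLE size factors edgeR called 23 of all names higher and 32 lower, and 4 late-numbered names higher and 0 lower; with no filter it called 25 and 26 of all names, and 3 and 0 of the late-numbered ones. Leaving out each library in turn gave 1 to 44 of all names higher and 0 to 75 lower, and 0 to 11 and 0 to 2 of the late-numbered names, with the high ends without PFFs. Over 8 settings the log2 fold change of ssc-miR-1285 stayed between 3.98 and 4.71, with adjusted p from 2.21e-05 to 0.119, and it was called in 4. Between pluripotent and differentiated libraries, DESeq2 called 13 of all names higher and 1 lower, and 2 late-numbered names higher; leaving out each library gave 0 to 6 and 0 to 9 of all names, the high ends without ES-like cells, and 0 late-numbered names. The log2 ratio of BLs to PFFs for ssc-miR-2320-3p changed from 1.00 to -0.32 without BL_1 and 1.68 without BL_2, and that of ES-like cells to PFFs for ssc-miR-4334-3p from 1.32 to -0.16 with TMM scaling.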
